A study of Mus musculus with 12 samples.

Results

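Dense clusters of open regions are stretches in which many separate patches of accessible DNA lie close together. They were selected on the positions of peaks alone, in the ATAC-seq peak list of vehicle-treated mice: overlapping entries were merged, merged regions on the 19 autosomes were chained where the gap was at most 3 kb, and chains of 6 or more regions were kept. The 177318 merged regions formed 106966 chains, and 1267 of these (1.18%) met the rule. They held 8662 regions, 4.89% of all. The members were chosen by the vehicle list, so their positions, sizes and vehicle peak values are given as a description. C57BL/6 mice, 6 to 8 weeks old, gave the dorsal root ganglia of levels L4 to L6 for both assays, 24 h after a dorsal column axotomy, which cuts the central branch of sensory axons in the spinal cord. All mice, controls included, had this injury. Each mouse had intraperitoneal injections at surgery and 2 h before it was killed, either MS275 at 12 mg/kg or a vehicle of Tween80, PEG300 and DMSO. ATAC-seq, which uses a transposase to cut accessible DNA, had 3 libraries per treatment of 1 mouse each, combined into 1 peak list per treatment. RNA-seq had 3 libraries per treatment, each a pool of 2 mice, with 34992533 to 60370523 reads assigned to genes.

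Accessible regions are sites where nucleosomes are displaced, mainly promoters and enhancers, and stretches with many of them often lie in or beside genes that a tissue uses heavily. MS275 (entinostat) inhibits class I histone deacetylases, enzymes that remove acetyl groups from histones at such sites. The ganglia contain sensory neurons, the glia that wrap them and their axons, and vessel and immune cells. Sensory neuron receptor, channel and structural genes summed to 31400 to 32600 CPM (read counts scaled to the size of each library) in vehicle libraries and 33100 to 36100 in MS275 libraries. None of the 25 was at 0 in all vehicle libraries. Levels in CPM are not divided by gene length, so they compare a gene between libraries and not 1 gene with another. In such bulk tissue, fewer cells of a type and less RNA per cell cannot be told apart.

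The promoters of 6 genes whose clusters include a region over the 250 bases before the transcription start show what lies under these regions. They are shown because their genes carry the RNA results or because the region there was or was not held in the MS275 list, that is, overlapped by an MS275 region by at least 1 bp. Sequences run 5′ to 3′ on the gene's strand and come from RefSeq, build GRCm38.p6, the assembly of mm10. Capitals mark a GC box (GGGCGG, or CCGCCC on the other strand). Isg20l2 lies at chr3:87930064-87930313 (plus strand), Zfp36 at chr7:28379229-28379478 (minus strand), Nr2f1 at chr13:78198874-78199123 (minus strand) and Casq1 at chr1:172219896-172220145 (minus strand). For Calca, chr7:114636358-114636607 (minus strand), and Prune2, chr19:16955868-16956117 (plus strand), the RefSeq start used lies inside the annotated gene span.
Isg20l2: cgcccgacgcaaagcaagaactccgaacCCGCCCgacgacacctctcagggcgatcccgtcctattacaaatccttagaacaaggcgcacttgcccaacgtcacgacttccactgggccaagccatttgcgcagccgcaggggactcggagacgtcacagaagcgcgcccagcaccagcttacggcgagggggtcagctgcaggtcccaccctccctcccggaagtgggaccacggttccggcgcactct
Zfp36: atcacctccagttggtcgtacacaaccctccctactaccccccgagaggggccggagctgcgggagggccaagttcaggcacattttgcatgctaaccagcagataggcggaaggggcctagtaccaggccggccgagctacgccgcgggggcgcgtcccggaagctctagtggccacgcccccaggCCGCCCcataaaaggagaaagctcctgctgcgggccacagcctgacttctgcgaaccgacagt
Nr2f1: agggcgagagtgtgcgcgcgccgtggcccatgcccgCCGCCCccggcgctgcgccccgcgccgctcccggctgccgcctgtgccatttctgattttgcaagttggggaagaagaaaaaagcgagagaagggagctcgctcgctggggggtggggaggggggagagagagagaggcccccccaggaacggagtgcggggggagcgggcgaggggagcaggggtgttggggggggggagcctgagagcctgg
Casq1: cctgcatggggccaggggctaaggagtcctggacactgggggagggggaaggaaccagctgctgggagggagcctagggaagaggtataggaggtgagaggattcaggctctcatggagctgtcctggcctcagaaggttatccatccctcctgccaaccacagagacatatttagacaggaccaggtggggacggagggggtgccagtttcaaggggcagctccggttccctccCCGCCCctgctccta
Calca: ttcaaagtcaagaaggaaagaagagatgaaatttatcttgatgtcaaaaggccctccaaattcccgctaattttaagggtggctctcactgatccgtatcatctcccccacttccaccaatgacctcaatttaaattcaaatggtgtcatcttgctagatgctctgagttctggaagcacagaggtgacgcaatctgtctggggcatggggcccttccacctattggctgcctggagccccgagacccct
Prune2: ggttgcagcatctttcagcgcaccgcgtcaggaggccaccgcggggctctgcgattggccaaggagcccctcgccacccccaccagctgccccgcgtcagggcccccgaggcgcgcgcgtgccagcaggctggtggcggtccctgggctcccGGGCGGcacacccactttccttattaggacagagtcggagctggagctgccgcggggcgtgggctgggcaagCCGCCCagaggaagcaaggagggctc
Of these, Prune2 had 22 CpG dinucleotides, 2 GC boxes and the highest fold enrichment, 3.86 in the authors' list, with the whole window inside a region 1483 bp wide. Isg20l2 had 24 CpG, 1 GC box and a fold of 3.7. Nr2f1 had 22 CpG and a fold of 2.13. The Calca window had 4 CpG, no GC box and 48.0% G and C, and its region had a fold of 2.13. Casq1 had 3 CpG, and its region, at a fold of 1.72 and 1213 bp wide, was the only one of the 6 that the MS275 list did not hold.

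Promoters in clusters held fewer CpG dinucleotides than promoters in other vehicle regions. Over 316 promoter windows in a cluster region the median CpG observed over expected was 0.54, against 0.706 over 15712 windows in other vehicle regions and 0.379 over all 31396 autosomal windows. The median share of G and C was close, 59.2% in clusters and 60.4% in other vehicle regions. A GC box, the site of Sp factors, lay in 46.5% of cluster windows, 57.0% of windows in other vehicle regions and 33% of all windows. The TATA box (TATAAA, either strand) lay in 7.91%, 5.77% and 12.4% of them. The ETS site CCGGAAGT was in 2.53%, 5.14% and 2.92%, and the CCAAT box in 28.2%, 33.3% and 33.7%. The AP-1 site TGANTCA lay in 3.8%, 4.45% and 6.77%, the cyclic AMP response element TGACGTCA in 2.22%, 2.52% and 1.58%, and the E-box CACGTG in 7.91%, 8.15% and 6.02%. Both strands were searched. A match describes letters in the window and is not a bound site.

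Clusters were mostly short and just past the rule's minimum. The median span was 10.1 kb (3.22 to 31.8 kb) and the median number of regions 6, with 692 clusters of exactly 6 and 1 of 18. Just outside the rule lay 1673 chains of 5 regions, with a median width of 407 bp and fold of 1.64 per region, against 404 bp and 1.63 in the clusters of 6. The median gap between neighbouring regions was 1131 bp, and regions covered a median of 30.3% of a span. In sum, the clusters spanned 13.4 Mb and their regions 4.09 Mb. Cluster regions were low in the authors' peak values: their median fold enrichment was 1.63, against 1.7 for other regions, and 17.6% had a -log10 q of at least 5, against 25.6%. When entries below that value were left out, 5 clusters remained under the rule.

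Clusters lay mainly inside genes and away from their promoters. Of the 8662 regions, 77.3% lay in a gene body outside the promoter window, against 64.5% of other regions. The promoter window took 3.22% of cluster regions and 7.33% of other regions. Chains just outside the rule were close to clusters in this. In chains of 5, 79.6% of regions overlapped a gene and 3.79% a promoter window, against 80.1% and 3.2% in clusters of 6. For lone regions the shares were 65.7% and 9.54%. Of the 1267 clusters, 220 (17.4%) had any region in a promoter window, 1150 (90.8%) overlapped a gene body, 1082 (85.4%) a protein-coding one, and 722 (57.0%) lay wholly within 1 gene. The clusters overlapped 1366 annotated genes, among them 1081 of 20665 protein-coding genes (5.23%), 193 long noncoding RNA genes and 33 miRNA genes.

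The cluster with most regions spanned chr1:88231856-88263611 (31.8 kb) over Mroh2a and the overlapping gene Hjurp, the gene of a chaperone for the centromeric histone CENP-A. It had 18 regions of low fold, 1.2 to 1.51, and 9 were held in the MS275 list. Next came Gtf2ird1, which encodes a transcription factor of the TFII-I family, at chr5:134409115-134440456 with 15 regions, 11 held. Stk39, a kinase that regulates chloride cotransporters, also had 15 regions (chr2:68343119-68365979), 6 of them held. A cluster of 14 regions lay over Eif3b, a translation initiation factor subunit, and the predicted gene Gm4869 (chr5:140428066-140452089, 8 held). On chromosome 7, Grik5, a kainate receptor subunit, held a cluster of 13 regions at chr7:25019774-25045469, 8 of them held.

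Clusters of 13 regions also lay in Robo2, an axon guidance receptor (chr16:74878582-74904154, 7 held), partly in Tdrp (chr8:13946331-13965429, 6 held), in the vomeronasal receptor pseudogene Vmn2r-ps16 (chr4:146480379-146498688, 9 held) and at the noncoding gene 9530059O14Rik (chr9:122577527-122595791, 8 held). Clusters of 12 regions lay mostly in Ppp1r1c, a protein phosphatase inhibitor (chr2:79794105-79822341, 7 held), and at chr4:3050071-3070044, which overlaps no gene and lies 102 kb from the nearest protein-coding gene, Vmn1r2. That cluster of 12 regions had 54.1% of its span covered, against the median of 30.3%, and 8 were held. The RNA of these genes ranged widely in vehicle libraries: 460 ± 8.25 CPM for Ppp1r1c, 261 ± 3.64 for Stk39, 182 ± 4.29 for Robo2 and 24.5 ± 0.766 for Gtf2ird1 (SD, n = 3). Mroh2a was at 0.0635 ± 0.0134 CPM, below the filter, and Vmn2r-ps16 had 0 counts in all 6 libraries. None of the tested genes named here passed the RNA test between treatments, beside 11.0% of all tested genes. Their adjusted p (edgeR) ran from 0.121 for Hjurp to 0.874 for Robo2. Without MS275 replicate 1 edgeR called Gtf2ird1 (log2 fold change 0.25, adjusted p = 0.0306).

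**Figure D1:**
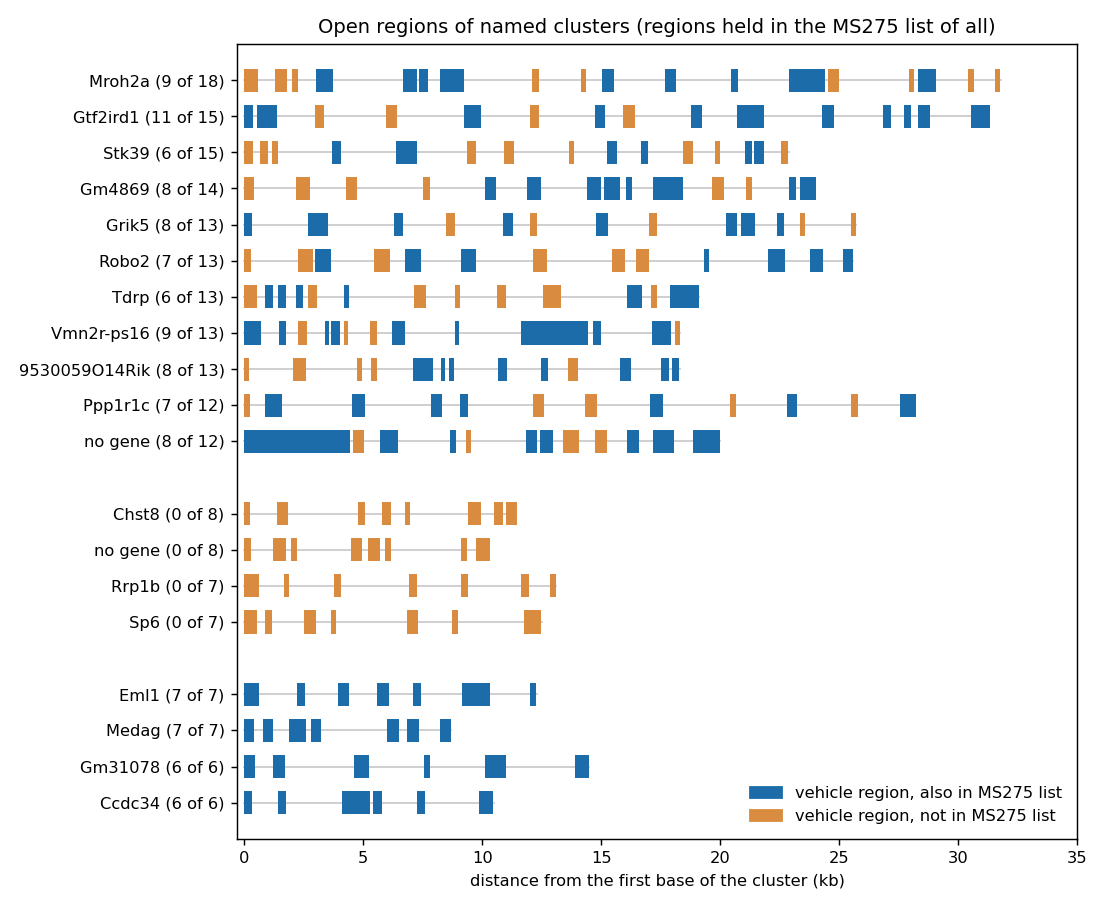
Open regions of 19 named clusters, drawn to scale as distance from the first base of the cluster in kb. Each block is a merged vehicle region, blue where the MS275 list also held it and orange where it did not. The 11 rows at the top are clusters with most regions, followed by 4 with 0 regions held and 4 with all held; each of the first 11 has both kinds of region.

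Single genes could hold several clusters: 125 genes held 2 or more. Ank2 and Dst had 9 each. Ank2 encodes ankyrin-B, which ties membrane proteins to the cytoskeleton, and Dst encodes dystonin, a cytoskeletal linker needed by sensory neurons. Dpp6, an auxiliary subunit of potassium channels, and Robo2 had 8 each, Rbfox1, a neuronal splicing regulator, had 6 and Atrnl1 had 5. These are long genes, of 401 kb (Dst) to 1560 kb (Robo2), and their vehicle libraries averaged from 182 ± 4.29 CPM for Robo2 to 1040 ± 49.5 for Dst (SD, n = 3). Of the 12 genes with most clusters, Pcbp3 alone, an RNA-binding protein gene with 4, passed the RNA test, beside 11.0% of all tested genes. Its vehicle libraries were at 382, 386 and 395 CPM and its MS275 libraries at 430, 449 and 451, with no overlap (log2 fold change 0.19, SE 0.038, adjusted p = 0.0152, edgeR). The call was lost without vehicle replicate 1, 2 or 3 (adjusted p from 0.0528 to 0.0919).

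Genes in clusters had higher CPM than genes outside them. Of protein-coding genes with an RNA row, the 1065 in clusters had a median vehicle level of 43.2 CPM (quartiles 10.2 and 118), and the other 18747 had 6.97 CPM (0.0715 and 37.7). By vehicle library the median of cluster genes was 43.6, 43.3 and 42.8 CPM, and that of other genes 6.91, 6.93 and 6.99. The difference was thus seen in each library, but the spread between libraries does not measure that between genes. The filter on low counts kept 94.1% of cluster genes and 71.2% of the others. Cluster genes were also longer, with a median span of 44.4 kb against 17.2 kb, and CPM grows with transcript length, whose part in this difference was not tested.

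Level and span went with clusters together. Of genes at 0.1 CPM or less, 1.04% held a cluster, and the share was 3.36% from 0.1 to 1 CPM, 4.23% from 1 to 10, 6.95% from 10 to 100 and 13.6% above 100 CPM. By span, the share went from 2.39% of genes of 10 kb or less to 13.6% of genes over 100 kb. Among genes both above 100 CPM and longer than 100 kb, 131 of 387 (33.9%, 95% Wilson interval 29.3% to 38.7%) held a cluster. At the same length, genes of 0.1 CPM or less had clusters in 2 of 107 cases (1.87%). At the same level, genes of 10 kb or less had them in 26 of 434 (5.99%). A longer gene has more room to overlap a cluster, and intervals cover counting error only.

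**Figure D2:**
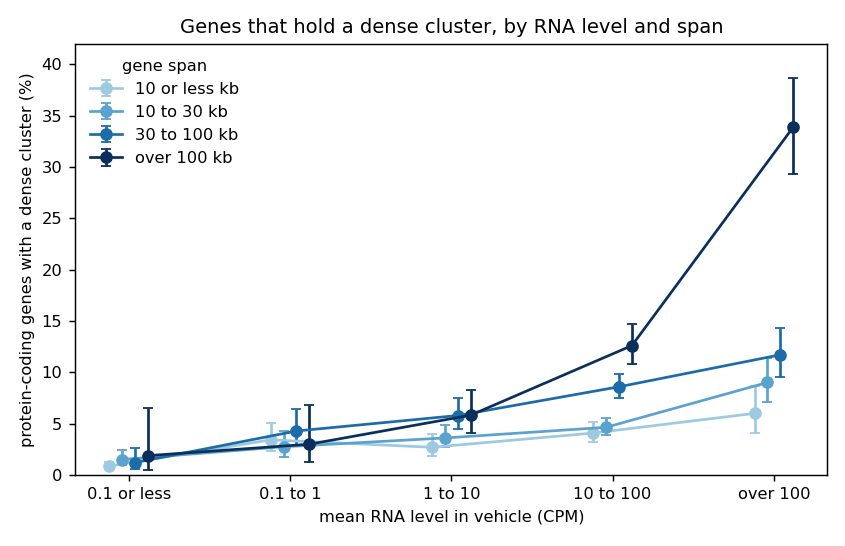
Share of protein-coding genes that hold a dense cluster (%) by mean vehicle RNA level (CPM classes) for 4 classes of gene span; points are shares and bars are 95% Wilson intervals. The line for spans over 100 kb ends at 33.9% above 100 CPM, and that for 10 kb or less at 5.99%.

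The MS275 list held cluster regions about as often as other regions. It held 4044 of 8662 cluster regions (46.7%, 45.6% to 47.7%) and 79962 of 168656 other regions (47.4%), and the share over all vehicle regions was 47.4%. With 1 combined list per treatment there is no replicate spread to set against this difference, and a region missing from a list may have lain under the caller's threshold. By chain size the share ran from 46.9% for lone regions to 48.7% in pairs, 45.4% in chains of 5 and 46.3% in clusters of 6. Regions at the edge of a cluster were held in 46.4% and inner ones in 46.8%.

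Within classes of like peak strength, the shares differed in both directions. Regions were put in 5 classes of like number by the authors' fold enrichment. In the lowest class the MS275 list held 31.4% of cluster regions (29.7% to 33.2%) and 27.7% of others. The next classes gave 40.6% against 32.5%, 47.6% against 38.5% and 60.2% against 51.9%. In the highest class, at a fold above 2.0, the order turned: 82.6% (79.9% to 85.0%) of cluster regions and 86.9% of others. By width, cluster regions of 250 bp or less were held in 25.6% and others in 22.2%, and regions over 1200 bp in 92.6% and 96.4%. Cluster regions in promoter windows were held in 77.4% of 279 cases, and other promoter regions in 91.0% of 12364.

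**Figure D3:**
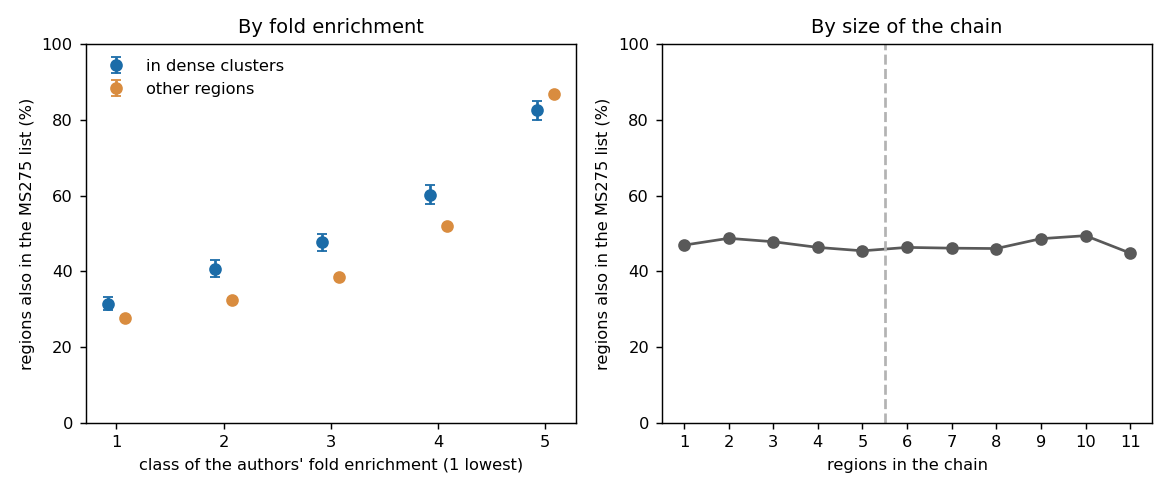
Percent of vehicle regions also in the MS275 list, left by class of the authors' fold enrichment for cluster regions (blue) and others (orange) with 95% Wilson intervals, right by number of regions in the chain up to 11, with the rule's threshold dashed. Cluster regions lie higher in the lower 4 classes and lower in the highest one, and the right panel stays between 44.8% and 49.4%.

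Few clusters had every region held or none. With 6 or more regions each and 47.4% of all vehicle regions held, few would lie at either end anyway. The counts are therefore not read as particular to clusters. In 13 clusters (1.03%) every region was held, in 41 none was, and the median share per cluster was 50% (quartiles 33.3% and 62.5%). Ranked by fold within a cluster, the strongest region (median fold 1.99) was held in 71.1% of clusters and the region of rank 6 (median fold 1.48) in 32.8%. The MS275 list placed 4574 regions in the spans of vehicle clusters, 52.8 per 100 vehicle regions, against 90.9 per 100 over all autosomes. Fewer MS275 than vehicle regions lay in 1201 clusters, as many in 52 and more in 14, among them Ppp1r1c with 14 MS275 and 12 vehicle regions. The spans were chosen for many vehicle regions, so fewer MS275 regions there follow in part from the rule.

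The same chaining of the MS275 list gives the reverse view. It made 513 clusters of 3407 regions, 2.11% of MS275 regions, with at most 13 regions. In their spans lay 66.7 vehicle regions per 100 MS275 regions, also below 100. Of the vehicle clusters 128 (10.1%) met an MS275 cluster, and of the MS275 clusters 130 (25.3%) met a vehicle cluster. When the vehicle list was shortened to as many entries as the MS275 list, it still made 892 clusters. When both lists were merged first, with the vehicle list the longer of the 2, 4471 clusters of 33160 regions resulted: 72.1% of those regions were in the vehicle list against 69.5% of all merged regions, and 58.3% were in the MS275 list against 62.7%.

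Among the 41 clusters with no region held, 4 were named, and the first lay in Chst8, a sulfotransferase gene (chr7:34763805-34775250), with 8 vehicle and 0 MS275 regions. Its folds were 1.46 to 1.68. For Chst8 RNA the vehicle libraries gave 24.3, 22.9 and 24.8 CPM, and those of MS275 gave 26.8, 27.1 and 31.0 CPM. The MS275 libraries were all higher, but the difference did not pass the test (log2 fold change 0.24, SE 0.071, adjusted p = 0.0626, edgeR; 0.0294 with DESeq2 and 0.0439 with the replicate number as a block). The other 3 named were one of 8 regions outside genes at chr8:12223912-12234231, one of 7 partly over Rrp1b, a nucleolar protein gene (chr17:32056929-32070011), and one of 7 at Sp6, a transcription factor gene (chr11:97001235-97013692). The last lies over an end of Sp6 and mostly beyond it, since the annotated gene starts at 97013569. Rrp1b was at 8.46 ± 0.0814 CPM in vehicle and 6.97 ± 0.523 with MS275, adjusted p = 0.072, and Sp6 at 3.62 ± 0.264 and 3.03 ± 0.766, adjusted p = 0.393 (SD, n = 3, edgeR).

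The largest fully held clusters had 7 regions, in Eml1, a microtubule-binding protein gene (chr12:108463435-108475700), and in Medag (chr5:149373129-149381815). Fully held clusters of 6 regions included those at the noncoding gene Gm31078 (chr1:192784396-192798873), over an end of Ccdc34 and mostly beyond it (chr2:110172459-110182928), and at Nr2f1. Eml1 RNA was 593 ± 28.7 CPM in vehicle and 584 ± 17.7 with MS275 (SD, n = 3, adjusted p = 0.801, edgeR), with overlapping libraries. Medag (adjusted p = 0.332) and Ccdc34 (0.852) did not pass the test either.

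The RNA comparison asked how transcripts of genes in clusters differed between MS275 and vehicle. Of 1026 tested genes in clusters, 87 rose (8.48%) and 47 fell (4.58%) at an adjusted p under 0.05 (edgeR). Over all 16819 tested genes the shares were 5.1% higher and 5.89% lower, 11.0% in either direction. The median log2 fold change was 0.029 for cluster genes, 0.002 for all tested genes and -0.001 for genes outside clusters. Changes past 1.5-fold were few, 18 higher and 5 lower. The counts moved with single libraries: 134 genes in clusters were called with all 6, but 33, 23 and 59 without vehicle replicate 1, 2 or 3, 76 without MS275 replicate 3 and 211 without MS275 replicate 2. Without MS275 replicate 1, which held most muscle RNA, 119 rose and 35 fell. Of genes that overlap no other annotated gene, a check added after the data were seen, 46 of 437 rose and 24 fell.

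In each class of gene span a larger share of cluster genes than of genes outside clusters rose, and a smaller share fell. Of 147 cluster genes of 10 kb or less, 12.9% rose and 1.36% fell, against 7.32% and 3.37% outside. From 10 to 30 kb the shares were 12.1% and 4.33%, against 5.49% and 6.56%. Over 100 kb they were 5.21% and 4.89%, against 2.73% and 5.84%. By level, cluster genes from 10 to 100 CPM rose in 7.75% and fell in 7.75%, against 4.38% and 10% outside, and above 100 CPM they rose in 8.28% and fell in 1.99%, against 7.64% and 2.65%. These shares have no test of their own.

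Genes were also grouped by the share of their cluster regions that the MS275 list held, beside 5.1% of all tested genes that rose and 5.89% that fell. Where at most 1 in 3 regions was held, 18 of 338 genes rose (5.33%) and 16 fell (4.73%). Where between 1 in 3 and 2 in 3 were held, 54 of 560 rose (9.64%) and 25 fell (4.46%). Where over 2 in 3 were held, 15 of 128 rose (11.7%) and 6 fell (4.69%). The shares that fell were close in the 3 groups, those that rose were not, and neither difference has a test. Across the 1026 genes the Spearman correlation of held share and log2 fold change was 0.113, a weak relation over genes that share libraries and lists.

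**Figure D4:**
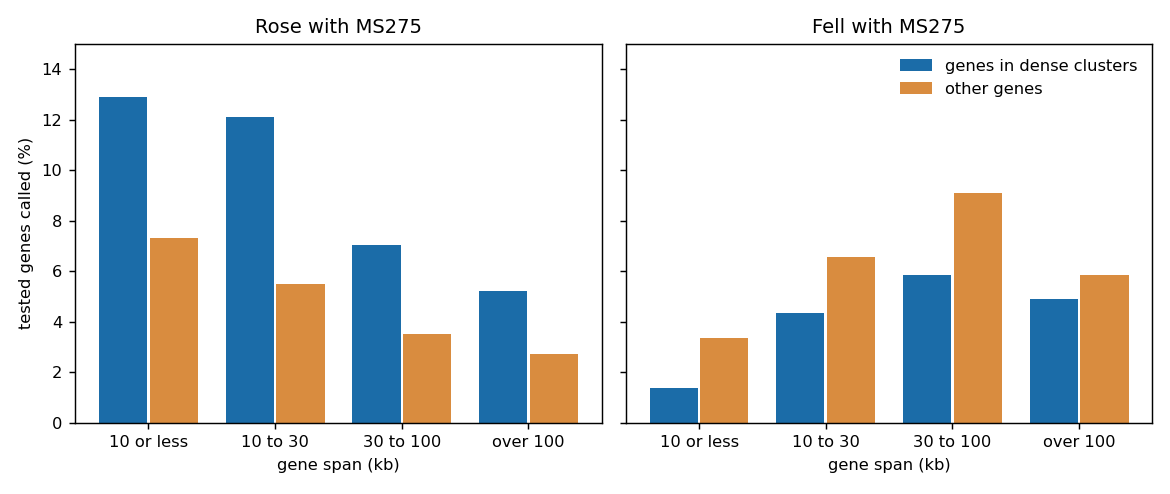
Percent of tested genes that rose (left) or fell (right) with MS275 at an adjusted p under 0.05, by gene span in kb, for genes in dense clusters (blue) and other genes (orange). Bars start at 0; blue bars are taller on the left and shorter on the right in all 4 classes.

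Among the 10 cluster genes with the largest falls were several for chromatin and transcription. Setd1b, a histone H3 lysine 4 methyltransferase, was at 25.4, 26.8 and 25.9 CPM in vehicle and 14.2, 17.0 and 16.4 in MS275 libraries (log2 fold change -0.71, SE 0.077, adjusted p = 0.0019, edgeR). The MS275 libraries were all below the vehicle ones, and for all 20 named changes the groups do not overlap, since the naming rule asked for it. Of the 7 regions of its cluster, which also overlaps Rhof and lies partly outside Setd1b, 6 were held. Kmt2a (Mll1 in the files), another such methyltransferase, was at 55.8, 55.1 and 51.1 CPM in vehicle and 39.3, 44.8 and 39.0 with MS275 (-0.39, SE 0.063, adjusted p = 0.00802), and 1 of its 6 regions was held. Brpf3, a scaffold of histone acetyltransferase complexes, was at 10.7, 11.6 and 12.3 CPM in vehicle and 7.75, 7.66 and 6.98 with MS275 (-0.63, SE 0.087, adjusted p = 0.00451).

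Nr2f1, an orphan nuclear receptor whose promoter is printed above, was at 23.5, 23.9 and 22.2 CPM in vehicle and 14.1, 15.9 and 15.7 with MS275 (log2 fold change -0.61, SE 0.07, adjusted p = 0.00244, edgeR). All 6 regions of its cluster were held, which records overlap with the MS275 list and not how open they were. Isg20l2, an exonuclease of ribosomal RNA processing, was at 12.1, 12.1 and 11.7 CPM in vehicle and 8.84, 8.94 and 9.41 with MS275 (-0.41, SE 0.072, adjusted p = 0.0108). Of its 6 regions the promoter region alone was held. Slc25a18, a mitochondrial glutamate carrier, had the largest fall, -0.81 (SE 0.17, adjusted p = 0.0174), from 2.56 ± 0.208 to 1.46 ± 0.202 CPM (SD, n = 3). The others were the zinc finger gene Zfp142 (-0.5), the kinase gene Stk35 (-0.46), the serine protease gene Prss36 (-0.42) and Prr12 (-0.4), with adjusted p from 0.00546 to 0.0178.

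Calls of the falling genes that were lost when 1 library was left out concerned the smaller ones and Slc25a18. Without vehicle replicate 1 or 2, Slc25a18, Prss36, Isg20l2 and Prr12 no longer passed, with adjusted p from 0.0533 to 0.0968, and without vehicle replicate 2 Kmt2a gave 0.053. Prr12 gave 0.0551 without vehicle replicate 3 and Slc25a18 0.0539 without MS275 replicate 3. Brpf3, Nr2f1, Stk35, Isg20l2 and Kmt2a overlap another annotated gene, so some of their reads may belong to it.

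Of the 10 genes with the largest rises, 3 are best known from muscle. Casq1, the calcium-binding protein of the skeletal muscle sarcoplasmic reticulum, was at 2.84, 1.98 and 2.67 CPM in vehicle and 9.76, 4.59 and 4.0 with MS275 (log2 fold change 1.31, SE 0.32, adjusted p = 0.0315, edgeR). Cox7a1, the muscle form of a cytochrome oxidase subunit, was at 2.34, 1.8 and 2.57 CPM in vehicle and 5.52, 4.11 and 4.63 with MS275 (1.1, SE 0.17, adjusted p = 0.00764). Tnni1, troponin I of slow muscle, was at 1.4, 1.49 and 1.36 CPM in vehicle and 2.32, 3.31 and 3.1 with MS275 (1.03, SE 0.18, adjusted p = 0.00954). For Casq1 the library of MS275 replicate 1 was highest, for Tnni1 it was the lowest of the MS275 libraries. A list of 13 other skeletal muscle genes, none of them in a cluster, summed to 18.1, 10.1 and 69.6 CPM in vehicle and 775, 106 and 115 CPM in MS275 replicates 1 to 3, and 12 of the 13 rose; none was at 0 in all vehicle libraries. The part of muscle RNA in these rises was not tested.

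Zfp36, which binds AU-rich elements and speeds mRNA decay, was at 6.63, 6.41 and 6.48 CPM in vehicle and 14.9, 11.5 and 12.5 with MS275 (log2 fold change 0.99, SE 0.11, adjusted p = 0.0019, edgeR). The vehicle libraries lay within a narrow range and every MS275 library well above it, and 6 of 7 regions of its cluster, its promoter among them, were held. Zfp36 spans 2.44 kb, less than the shortest cluster (3.22 kb), so its cluster extends beyond the gene. Neat1, the noncoding RNA that builds paraspeckles, was at 86.1, 99.1 and 96.6 CPM in vehicle and 171, 142 and 157 with MS275 (0.74, SE 0.075, adjusted p = 0.0019). Its vehicle libraries spread more than those of Zfp36, and 4 of the 6 regions of its cluster were held. Creb3l1, a transcription factor held in the endoplasmic reticulum membrane, was at 14.9, 14.0 and 14.2 CPM in vehicle and 24.9, 21.5 and 23.3 with MS275 (0.69, SE 0.073, adjusted p = 0.0019). Tent5b (Fam46b in the files), a poly(A) polymerase gene, went from 2.0 ± 0.306 to 3.97 ± 0.18 CPM (SD, n = 3, log2 fold change 1.0, adjusted p = 0.00596).

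The remaining rises were those of Neurl3, a ubiquitin ligase gene (log2 fold change 0.94, adjusted p = 0.0147, edgeR), Hoxa3, a homeobox gene (0.74, adjusted p = 0.0156), and Tmem266 (AI118078 in the files; 0.71, adjusted p = 0.0134). Neurl3, Hoxa3 and Casq1 were the least stable of the named rises. Without vehicle replicate 1 or 2 they, Tmem266 and Tnni1 no longer passed, with adjusted p from 0.0514 to 0.132. Without vehicle replicate 3, Casq1 (0.084), Neurl3 (0.0598) and Hoxa3 (0.063) did not pass. Hoxa3 overlaps 8 other annotated genes, among them Hoxa4, Hoxa5 and Hoxa6, so its reads and its cluster may belong in part to these. Casq1 and Tent5b each overlap 1 predicted gene.

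**Figure D5:**
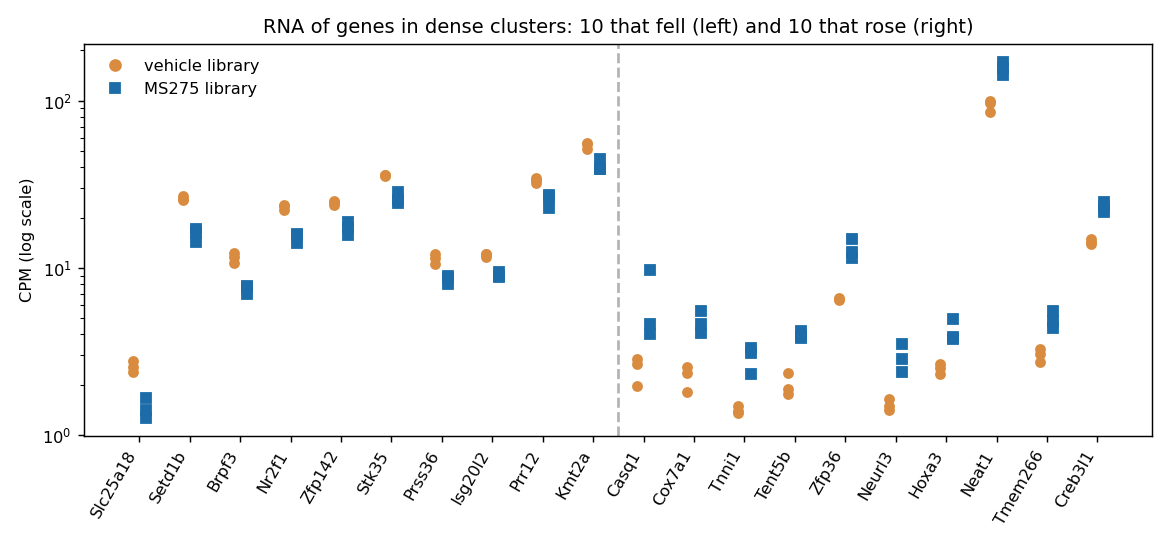
RNA level (CPM, log axis) in each vehicle (orange circles) and MS275 (blue squares) library for the 10 falls and 10 rises named among genes in dense clusters. The groups do not overlap for any of the 20, which the naming rule required. CPM is not divided by length, so heights compare libraries within a gene; the MS275 libraries of Casq1 range from 4.0 to 9.76 CPM.

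The 10 cluster genes of highest CPM were picked on a scale that also depends on length, so their order is not read. Nefm, the medium neurofilament subunit, was at 4690 ± 241 CPM in vehicle (SD, n = 3), Map1b, a microtubule-associated protein, at 4150 ± 150, and Uchl1, a neuronal ubiquitin hydrolase, at 2530 ± 48.9. Sncg, gamma-synuclein, was at 1710 ± 86.1 CPM, and the axonal transport motors Kif5a and Kif1b at 1400 ± 26.4 and 1330 ± 58.5. Fstl1, a secreted glycoprotein, was at 3070 ± 95.9 CPM, Spock2, a proteoglycan, at 2820 ± 45.2, and Prune2 at 1420 ± 68.3. Several held more than 1 cluster: Prune2 had 4 with 26 regions, 15 held, and Map1b, Fstl1 and Kif1b had 3 each, with 10 of 19, 12 of 25 and 8 of 24 regions held.

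Of these 10 genes, Calca alone passed the RNA test, beside 11.0% of all tested genes called in either direction. Calca encodes calcitonin gene-related peptide, a transmitter of pain-sensing neurons, and 5 of the 6 regions of its cluster were held. It was at 1350, 1430 and 1370 CPM in vehicle and 1540, 1630 and 1580 with MS275, without overlap (log2 fold change 0.19, SE 0.042, adjusted p = 0.0218, edgeR). Without any 1 of vehicle replicates 1, 2 or 3 or MS275 replicate 3 the call was lost, with adjusted p from 0.0514 to 0.103. For the others the adjusted p ran from 0.0938 (Fstl1, 0.14) to 0.526 (Spock2, 0.05), and log2 fold changes from -0.13 to 0.17. DESeq2 also called Fstl1 (adjusted p = 0.0357) and Sncg (0.0272), and the fit with the replicate number as a block called Sncg (0.0366).

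Gene lists of the ganglion's cell types were in clusters to different degrees, beside 5.23% of protein-coding genes. Of 25 sensory neuron receptor, channel and structural genes, 8 (32%) lay in clusters: Avil, Calca, Nefm, P2rx3, Piezo2, Ret, Sncg and Uchl1. Among these 8, 1 rose (Calca) and 0 fell, beside 5.1% and 5.89% of all tested genes. Of 20 sensory neuron transcription factors 2 did, Isl2 and Tlx3, at 170 ± 13.7 and 95 ± 4.47 CPM in vehicle (SD, n = 3), neither passing the RNA test. Schwann cell regulators had 0 of 16 in clusters, regeneration-associated genes 0 of 20 and fibroblast genes 0 of 10. Myelin genes had 1 of 14, Mbp, at 1190 ± 181 CPM (SD, n = 3), and satellite glia genes 1 of 15, S100b, at 646 ± 12.9 CPM in vehicle and 705 ± 15.2 with MS275 (adjusted p = 0.0583, edgeR; 0.0185 with DESeq2). Lists differ in gene length and level, which go with clusters as described above.

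Of the 87 cluster genes that rose, 3 are on the vessel lists. Of 16 endothelial genes 3 lay in clusters and 2 of these rose, beside 5.1% of all tested genes. Eng, the TGF-beta coreceptor endoglin, was at 16.0, 16.8 and 17.6 CPM in vehicle and 23.3, 24.7 and 21.3 with MS275 (log2 fold change 0.46, SE 0.075, adjusted p = 0.0083, edgeR), all MS275 libraries above all vehicle ones. Its cluster had 11 regions, 7 held. The Eng gene overlaps Fpgs and other annotated genes, so some of its reads may belong to them. Robo4, an endothelial guidance receptor, rose from 4.83 ± 0.562 to 7.0 ± 0.292 CPM (SD, n = 3, adjusted p = 0.0178), and Cdh5, a junction cadherin, was at 18.7 ± 2.46 and 21 ± 1.34 (adjusted p = 0.282). Of 10 mural cell genes 2 lay in clusters. Cspg4, the proteoglycan NG2 of pericytes, rose from 7.66 ± 0.585 to 11.5 ± 1.45 CPM (adjusted p = 0.0129), and Tagln, a smooth muscle actin-binding protein, was at 21.2 ± 3.49 and 25.2 ± 4.07 (adjusted p = 0.253). Eng and Cspg4 were lost without vehicle replicate 2 (adjusted p = 0.0511 and 0.0717), and Robo4 without vehicle replicate 1 or 2 or MS275 replicate 3 (0.0524 to 0.096). The 16 endothelial genes summed to 200 to 226 CPM in vehicle and 264 to 290 CPM in MS275 libraries, and 8 of 16 rose. The 10 mural cell genes summed to 272 to 318 and 352 to 421 CPM, and 4 rose. None of either list was at 0 in all vehicle libraries, and the part of vessel content in these rises was not tested.

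Of 25 chromatin regulators 8 (32%) lay in clusters, among them Arid1a, Arid1b, Hdac4, Kmt2a, Kmt2d, Ncor1 and Setd1a. Of the 7 tested, 0 rose and 2 fell, Kmt2a and Arid1a, and over the whole list 11 of 24 tested genes fell and 0 rose, beside 5.89% and 5.1% of all tested genes. Arid1a, a subunit of the BAF remodelling complex, was at 68.6, 74.4 and 68.5 CPM in vehicle and 59.3, 62.8 and 62.9 with MS275, without overlap (log2 fold change -0.19, SE 0.048, adjusted p = 0.0346, edgeR). Leaving out any library but MS275 replicate 2 ended that call, with adjusted p from 0.0657 to 0.164. Its paralogue Arid1b, with 2 clusters and 4 of 16 regions held, was at 57.7 ± 0.45 and 53.6 ± 1.65 CPM (SD, n = 3, adjusted p = 0.127), and the corepressor gene Ncor1 at 126 ± 1.59 and 117 ± 4.76 (adjusted p = 0.177). Of the immune lists, the macrophage factor Spi1 and the neutrophil protease Mmp9 lay in clusters, at 2.49 ± 0.362 and 3.44 ± 0.448 CPM in vehicle. Mmp9 with MS275 was at 9.74, 2.82 and 4.2 CPM, high in replicate 1 alone, and did not pass (adjusted p = 0.254; 0.0398 without MS275 replicate 2). The 12 neutrophil genes summed to 46.2 to 76.9 CPM in vehicle and 293, 52.5 and 85.7 CPM in MS275 replicates 1 to 3. Of 39 Hox genes Hoxa3 alone and of 21 immediate early genes Zfp36 alone lay in clusters, both described above. Extracellular matrix genes had 2 of 23, Col18a1 and Col5a1, with adjusted p of 0.232 and 0.718, and erythroid and adipocyte genes had 0.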

How the data were processed

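RNA files hold raw read counts per gene deposited by the authors. ATAC replicates came combined, as 1 list per treatment. The columns deposited by the authors are, from layout and values, the score, fold ratio and summit offset of each entry, and its p-value and q-value as -log10. They describe entries within a list only. FastQC 0.10.1, STAR 2.7.0, R 3.5.0, limma 3.38.3 and edgeR 3.24.3 and the build mm10 are named, without roles, per the submitters' processing notes. ATAC depth, peak caller and strand setting: not given in the sources used here. Groups came from treatment and assay in the labels, whose design text calls the triplicates biological.

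Entries were merged and chained with pandas 2.3.3. A region was held when an MS275 region overlapped it by at least 1 bp, and a merged region took the highest fold and -log10 q of its entries. Genes, from RefSeq GRCm38.p6, were in a cluster when their bodies overlapped its span. Symbols matched 15946 of 16819 tested genes (94.8%). Promoter windows are the 250 bases before a RefSeq start; those of chromosome 18 were not used, so its regions count as gene body or outside. RNA was tested with edgeR 4.0.16 in R 4.3.3 (TMM, filterByExpr, quasi-likelihood, treatment only, 2-sided, Benjamini-Hochberg over all tested genes), with rows that name no gene (18.89% to 20.56% of reads) left out. The test was checked on simulated data. Standard errors divide the log2 fold change by the root of the F statistic. No lengths of transcripts were used, so the planned level per kb became CPM. Intervals are 95% Wilson.

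The members and gene lists were chosen with earlier results of these data known. Named were the 12 clusters with most regions, the 4 with the lowest held share and the 4 largest fully held, the 10 largest called changes per direction (a mean of at least 1 log2 CPM, groups that do not overlap, no provisional symbols), the 10 genes of highest CPM, from each list at most 4 members, by p, and the 12 genes with most clusters, which were added after the values were seen; some items that these rules name are not reported here. The alternatives were other gaps, minimum sizes, merging, overlap rules, list sizes, gene assignments, normalisation, filters, DESeq2 1.42.0, the replicate block and each RNA library left out.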

Additional observations from a re-analysis of the deposited data

How the results depend on the processing

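The rule's numbers set the size of the set. Against 1267 clusters, a gap of at most 2 kb gave 323, 5 kb 4946 and 10 kb 7060; a minimum of 5 regions gave 2940, 8 regions 245 and 10 regions 60; a -log10 q of at least 5 gave 5. Clusters of the MS275 list numbered 105 at 2 kb, 2796 at 5 kb, 1411 with 5 or more regions, 84 with 8 or more and 1 at the stricter q, so the vehicle list made more in every one of these settings. The share of cluster regions held (46.7%) moved to 48.9% at 2 kb, 48.0% and 50.5% with 8 or 10 or more regions, 61.3% at the stricter q (31 regions), 48.7% with lists of equal size, 39.3% where 50% of a region had to be covered and 42.2% for merged lists. The share of clusters fully held (1.03%) was 2.17% at 2 kb, 0.411% at 10 kb, 2.38% with 5 or more regions, 0.0% with 8 or more, 10 or more and the stricter q, 0.395% with 50% covered and 2.24% for merged lists. Genes in clusters called in the RNA comparison (134) were 34, 526 and 1133 at 2, 5 and 10 kb, 270, 27 and 10 with 5, 8 or 10 or more regions, 1 at the stricter q, 358 for merged lists, 80 where an end of the gene, and 12 where the whole gene, lay in the cluster, and 70 among genes that overlap no other gene, chosen after seeing the data. More rose than fell in these settings, except with 10 or more regions (4 and 6) and at the stricter q (0 and 1). Over all 16819 tested genes 11.0% were called, 5.1% higher and 5.89% lower. The number of genes in clusters changes with each setting, so these counts are not shares and do not compare with one another. The median vehicle level (43.2 CPM) was 29.8 and 13.7 CPM for genes with an end or the whole body inside and 48.1 for those past the filter. The cause of these shifts beyond the change in members was not tested.

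The RNA calls depended on single libraries: leaving out each in turn gave 261 to 2763 called genes against 1849, and 23 to 211 in clusters. Some of this follows from fewer samples. DESeq2 called 2284 genes and 176 in clusters, and no filter 2397 and 167. The replicate numbers are not stated to pair the samples. Correlations of their deviations were 0.019, 0.111 and -0.061, with 2 of 3 vehicle libraries closest to their own number. With 3 libraries per treatment these values cannot exclude a pairing. With the replicate number as a block 2088 genes were called, 150 of them in clusters, 98 higher and 52 lower. Over the named genes and these RNA settings, 672 values stayed on their side of the threshold, 41 no longer passed and 17 newly passed. Some log2 fold changes near 0 that did not pass changed sign. That of Ccdc34 went from 0.04 to -0.04 without vehicle replicate 1. The ATAC depth is unknown here, so a region missing from a list cannot be told from one under its threshold.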

Other observations

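The 5 clusters left when entries with a -log10 q under 5 were dropped were looked at after their number was known, and each overlapped a cluster of the full list. At chr5:123132060-123142701 (10.6 kb, 6 regions, 4 held) one overlaps Rhof and an end of Setd1b. The annotated body of Setd1b starts at 123142040, so most of this cluster lies outside it. Setd1b fell with MS275 as described above. At chr10:81407540-81417352 one of 6 regions, 3 held, lies over Nfic, a nuclear factor I gene, with Gm16104 and Mir1191b. At chr8:71811535-71816601 one of 6 regions, 5 held, lies over Gm40504. The other two lie close together on chromosome 4: chr4:147342958-147351074 over the zinc finger gene Zfp978 (6 regions, 2 held, highest fold 2.89) and chr4:147416103-147424681 outside genes (7 regions, 5 held, highest fold 2.93). The cluster of 13 regions in Vmn2r-ps16, whose RNA was at 0, is on the same chromosome at chr4:146480379-146498688. Whether reads in this part of chromosome 4 map to more than 1 place was not tested.

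Clusters were uneven over chromosomes. They held 6.91% of the regions of chromosome 19, 5.77% on chromosome 5 and 5.76% on chromosome 16, and 2.76% on chromosome 13 and 3.49% on chromosome 14, against 4.89% over all autosomes. The share of cluster regions held in the MS275 list ran from 42.1% on chromosome 9 to 52.2% on chromosome 13. Over all vehicle regions of a chromosome the share ran from 43.5% on chromosome 9 to 53.4% on chromosome 3, with 50.9% on chromosome 13. The range among cluster regions is therefore not read as particular to clusters.

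Genes in clusters of the MS275 list numbered 566, of which 185 (32.7%) were also in vehicle clusters, 13.5% of the 1366 genes there. The median vehicle level of the 457 protein-coding ones with an RNA row was 42.7 CPM. Of 281 tested genes in MS275 clusters alone, 22 rose and 12 fell (edgeR, adjusted p under 0.05), and of 864 in vehicle clusters alone, 71 rose and 38 fell, beside 5.1% and 5.89% of all tested genes. The difference between the sets was not tested.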
